A study of Mus musculus with 2 samples.

Results

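Nuclei of differentiating and fusing myocytes, the cells that stand between the muscle stem cell and the muscle fibre, are described here in regenerating mouse muscle. They were chosen from measured values. A barcode needed at least 2000 UMIs (unique molecular identifiers, each marking 1 captured RNA molecule), with at most 5% of them mitochondrial. It needed at least 3 UMIs summed over Myog, Mymk and Mymx, and at least 0.3% of UMIs in the fibre genes Ttn, Neb, Trdn and Dmd. It could hold at most 1 UMI of Ptprc, Pdgfra and Pax7, which mark leukocytes, fibroadipogenic progenitors and satellite cells. The rule found 1873 nuclei among the 23616 barcodes past the depth and mitochondrial limits: 1465 of 16986 in the AHRfl/fl library and 408 of 6630 in the AHRmKO library. No barcode was shared by the chosen nuclei of the libraries, and 30 were shared among all barcodes past those limits.

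Both libraries are single-nucleus RNA-seq of the tibialis anterior, which lifts the foot, from male mice of 16 to 20 weeks with chronic kidney disease (CKD), whose femoral artery had been ligated 5 days earlier. The strain label is the same for both: AHRtm3.1Bra/J, which carries a floxed Ahr gene for the aryl hydrocarbon receptor, and the transgene Tg(ACTA1-cre/Esr1*)2Kesr/J, in which a skeletal actin promoter drives a Cre recombinase fused to an oestrogen receptor domain. The strains were crossed with each other. The groups and libraries are called AHRfl/fl and AHRmKO as labelled, and the labels do not say how Cre was activated or how many mice were pooled. Kidney disease and ligation are shared by both groups, and uninjured or healthy-kidney muscle was not analysed here. Each group is 1 library, so differences between the libraries have no replicates behind them and carry no p-value.

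After injury, satellite cells leave quiescence, divide as myoblasts, withdraw from the cell cycle and fuse into multinucleated fibres. Myogenin (Myog) is the transcription factor of terminal differentiation. Myomaker (Mymk) and myomixer (Mymx) are membrane proteins that act in succession to merge the membranes of fusing cells, and their expression falls once fusion is done. The skeletal actin promoter that drives Cre is itself switched on during this differentiation.

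Of the 3 fusion genes and the 7 myocyte markers that the rule did not use, 7 of 10 had an entry in the RefSeq promoter table (GRCm38.p6). Shown here are the 250 bases before the RefSeq transcript start of that table for Myog, which defines these nuclei, and for Chrng, the fetal subunit of the acetylcholine receptor, a marker of differentiating muscle that the rule did not use. Sequences run 5′ to 3′, and capitals mark the E-box CANNTG, the letters bound by Myog and its relatives, and CTATATT, the start of an A/T-rich motif of the MEF2 type, both searched on both strands. Myog lies at chr1:134289754-134290003 and Chrng at chr1:87205561-87205810, both on the plus strand. In GENCODE M21 the Myog gene starts at 134289989, a few bases before the end of its stretch, and the Chrng gene starts at 87204657, so by that annotation the Chrng stretch lies inside the gene.
Myog: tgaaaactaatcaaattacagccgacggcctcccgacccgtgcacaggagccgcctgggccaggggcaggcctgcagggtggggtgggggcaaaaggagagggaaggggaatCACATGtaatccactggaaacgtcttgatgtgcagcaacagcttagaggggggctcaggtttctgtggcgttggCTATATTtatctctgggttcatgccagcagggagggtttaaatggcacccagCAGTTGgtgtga
Chrng: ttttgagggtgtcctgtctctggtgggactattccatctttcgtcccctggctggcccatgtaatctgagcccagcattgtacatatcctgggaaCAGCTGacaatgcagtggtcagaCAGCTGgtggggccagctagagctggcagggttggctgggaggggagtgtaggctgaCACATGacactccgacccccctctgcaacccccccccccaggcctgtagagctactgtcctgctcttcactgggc
The Myog stretch held 2 E-boxes and 1 CTATATT. The Chrng stretch held 3 E-boxes, of which 2 read CAGCTG, a form of CANNTG. The stretches of Actc1 and Myl4, markers of the same list, held 0 matches to any of these motifs, and the other genes matched held from 1 to 4 E-boxes in each stretch. Among 32851 promoter stretches of the same length, 66.2% held CANNTG, 13% CAGCTG and 1.75% CTATATT. A match is a description of the letters and does not show that a factor was bound.

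The libraries differed in background before any comparison. Droplets of 200 to under 500 UMIs, which hold mostly RNA freed from broken cells, contained Myog at 549 counts per 1000000 UMIs (CPM) in the AHRfl/fl library and 80.3 CPM in the other. Mymk stood at 576 and 79.8 CPM in those droplets, and Mymx at 211 and 7.86 CPM. Droplets of at most 100 UMIs held less in the first library and more in the second, with Myog at 288 and 121 CPM, Mymk at 367 and 115 CPM and Mymx at 147 and 27.8 CPM. In both kinds of droplet the level was higher in the AHRfl/fl library. The share of free RNA in the myocyte nuclei, estimated from 10 macrophage genes, was 13.8% in the AHRfl/fl library and 10.6% in the other. At that share free RNA would give 184 of the 764 CPM of the fusion genes summed in the first library (24.1%) and 17.8 of 624 CPM in the second (2.86%).

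The same threshold was passed by nuclei that should lack fusion genes. Among nuclei with at least 2 UMIs of Ptprc and none of Pdgfra or Pax7 (median depths of 3181.5 and 3816 UMIs), 9.75% (95% interval 9.02 to 10.5) had 3 or more fusion gene UMIs in the AHRfl/fl library and 1.66% (1.11 to 2.39) in the other. Another set lay past the fibre-gene floor with at most 1 UMI of Ptprc, Pdgfra and Pax7 (median depths of 4444 and 3648 UMIs). Its shares were 33.7% (32.3 to 35.1) and 17.4% (15.8 to 18.9). Thinned to 2000 UMIs per nucleus, the leukocyte shares were 2.33% and 0.296%, and those of the fibre-gene set 8.03% and 3.32%. These shares rest on the values that the rule used and are a description, with no reading of how far the members stand above background. All intervals cover counting error only.

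Nuclei at the edges of the rule are given as a description. In the AHRfl/fl library, 591 members had exactly 3 fusion gene UMIs and 871 otherwise eligible nuclei had 2. Their levels of Mef2c, a transcription factor of muscle differentiation, were 1717 and 1597 CPM. In the AHRmKO library, 177 members had 3 and 322 nuclei had 2, with Mef2c at 816 and 784 CPM. The threshold on fusion genes therefore runs through nuclei with similar Mef2c levels. At the fibre-gene floor, the 38 members of the AHRfl/fl library just inside (0.3 to under 0.5% of UMIs) had Mef2c at 229 CPM and Mrc1, a macrophage receptor, at 337 CPM. The 26 nuclei just outside had Mef2c at 168 CPM and Mrc1 at 649 CPM. In the AHRmKO library, 1 member lay just inside that floor and 0 nuclei just outside.

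Myocyte nuclei made up 8.62% (8.21 to 9.06) of barcodes past the limits in the AHRfl/fl library and 6.15% (5.59 to 6.76) in the other. The difference of -2.47 percentage points (Newcombe interval -3.17 to -1.74) became 0.23 points when the fibre-gene floor was raised to 2%, an alternative added after seeing the data, so no direction is claimed for it. The nuclei had a median of 5232 UMIs and 2422 genes in the first and 5523.5 UMIs and 2389 genes in the second library. Fibre genes took a median of 2.59% of their UMIs in the AHRfl/fl library and 5.01% in the other. Scrublet marked 2.87% and 0.490% of the myocyte nuclei among its highest doublet scores, against 6.02% and 2.62% of all barcodes past the limits.

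The genes of the rule are described first. Myog (ENSMUSG00000026459, chromosome 1, 134289989 to 134292548) stood at 303 CPM (292 to 315; 2569 UMIs) in myocyte nuclei of the AHRfl/fl library and at 183 CPM (167 to 199; 515 UMIs) in the other. Mymk (ENSMUSG00000009214, chromosome 2, 27061636 to 27072179) stood at 367 CPM (354 to 380; 3105 UMIs) and 403 CPM (380 to 427; 1134 UMIs). Mymx (ENSMUSG00000079471, chromosome 17, 45600971 to 45602102) stood at 93.4 CPM (87.1 to 100.2; 791 UMIs) and 38.0 CPM (31.2 to 45.9; 107 UMIs). The log2 differences, AHRmKO minus AHRfl/fl, were -0.73 for Myog, 0.13 for Mymk and -1.29 for Mymx. Since these genes chose the nuclei and free RNA of them differed between the libraries, the values are a description only. For each UMI of Myog there were 1.21 UMIs of Mymk in the first and 2.20 in the second library, while the droplets of 200 to under 500 UMIs held 1.05 and 0.994. In the AHRfl/fl library, the droplets of at most 100 UMIs held less Myog than the myocyte nuclei (288 CPM) and as much Mymk (367 CPM).

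**Figure D1:**
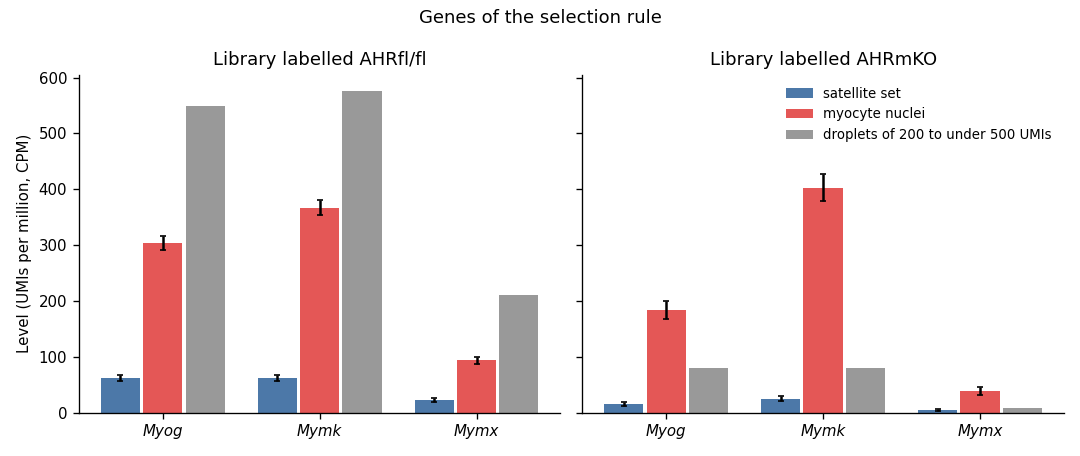
Levels of Myog, Mymk and Mymx (CPM) in satellite nuclei, myocyte nuclei and droplets of 200 to under 500 UMIs, with exact 95% Poisson intervals on the nuclei. In the AHRfl/fl library the droplets stand above the myocyte nuclei for all 3 genes (549 against 303 CPM for Myog), and in the AHRmKO library they stand below (80.3 against 183 CPM).

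Single nuclei held different combinations of the 3 genes. Mymk was detected in 89.6% (87.9 to 91.1) of myocyte nuclei in the AHRfl/fl library and 96.3% (94.0 to 97.9) in the other. Myog was detected in 84.6% (82.7 to 86.5) and 67.9% (63.1 to 72.4), and Mymx in 41.3% (38.8 to 43.9) and 21.1% (17.2 to 25.4). The commonest combination was Myog with Mymk and no Mymx, at 46.8% and 52.9%. All 3 genes were found in 27.5% (25.2 to 29.9) and 11.3% (8.37 to 14.8), and Mymk alone in 7.51% (6.21 to 8.98) and 24% (20.0 to 28.5). These combinations are of genes that the rule used, so no difference is read from them, and the part of free RNA in them was not tested. No nucleus held more than 13 UMIs of any of the 3 genes, and a gene that is missing may be below detection.

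The label was checked against 7 myocyte markers that the rule did not use: Tnnt2, Actc1, Chrng, Chrna1, Cdkn1c, Hes6 and Myl4. All 7 were detected in both libraries, and their summed level was 2431 CPM in myocyte nuclei of the AHRfl/fl library and 2862 CPM in the other, against 935 and 507 CPM in satellite nuclei and 1900.1 and 2493 CPM in regenerating nuclei. The markers thus set these nuclei apart from satellite nuclei more than from regenerating nuclei. Free RNA held them at 5213 and 560 CPM. Chrng stood at 335 CPM in myocyte nuclei and 86.7 CPM in satellite nuclei of the first library, and at 524 and 120.0 CPM in the second. Regenerating nuclei held it at 353 and 626 CPM. The fetal receptor subunit was thus several-fold higher in myocyte than in satellite nuclei of each library, and its highest level was in regenerating nuclei. The 10 macrophage markers summed to 780 and 163 CPM in myocyte nuclei, the 8 fibroadipogenic markers to 1929 and 1368 CPM, and the 7 endothelial markers to 52.6 and 17.8 CPM. Satellite nuclei held the macrophage markers at 934 and 307 CPM and the fibroadipogenic markers at 4198 and 2599 CPM, above the myocyte levels. Regenerating nuclei held them at 735 and 253 CPM and at 2078 and 1304 CPM. The 10 macrophage and 8 fibroadipogenic markers were all detected in both libraries, and of the endothelial markers Kdr was at 0 in the AHRmKO library. Mural markers summed to 479 and 436 CPM against 151 and 69.3 CPM in satellite nuclei, and to 473 and 406 CPM in regenerating nuclei. Adipocyte markers summed to 175 and 150 CPM against 70.1 and 57.8 CPM in satellite nuclei, and to 231 and 190 CPM in regenerating nuclei. Markers of both types were thus higher in myocyte and regenerating nuclei than in satellite nuclei. Haemoglobin genes summed to 302 and 91.3 CPM, while Schwann, tenocyte, lymphocyte and neutrophil markers summed to at most 25.4 CPM each. The part of these other cell types in the differences between the sets or between the libraries was not tested.

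The nuclei were placed between a satellite set and a regenerating myonucleus set of the same library, both chosen on measured values, so every contrast with them is a description. The satellite set had at least 2 UMIs of Pax7, at most 1 of Ptprc and Pdgfra and at most 2 of the fusion genes (1929 and 1007 nuclei). The regenerating set had no fusion gene UMI, at least 2% of UMIs in the fibre genes and at least 0.1% in Myh3, the embryonic myosin heavy chain (287 and 353 nuclei). Its nuclei could also hold at most 1 UMI of Ptprc, Pdgfra and Pax7. Each nucleus was thinned to 2000 UMIs and scored by the share of late UMIs (56 contractile, triad and acetylcholine receptor genes) among late and early UMIs (28 satellite and Notch genes), with the rule genes left out. The median late share of the AHRfl/fl library was 63.6% in satellite nuclei, 89.7% in myocyte nuclei and 92.5% in regenerating nuclei. In the AHRmKO library it was 51.2%, 87.6% and 89.1%. Myocyte nuclei thus lay 90.3% and 95.9% of the way from satellite to regenerating nuclei. Of the members, 952 of 1465 and 387 of 408 met the 2% fibre-gene floor of the regenerating set themselves. Nearness to that set is thus partly built into the selection. Free RNA was not subtracted from these shares, so its part in the position was not tested. In satellite nuclei of the AHRfl/fl library it would give 631 CPM of Acta1, a late gene, where 512 CPM were measured. Of Mybpc1, another late gene, it would give 48.5 of 1609 CPM there. The spread of single nuclei was wide: the middle 90% of myocyte nuclei ran from 73.3 to 96.9% in the first and from 70.7 to 94.9% in the second library, overlapping the regenerating set.

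**Figure D2:**
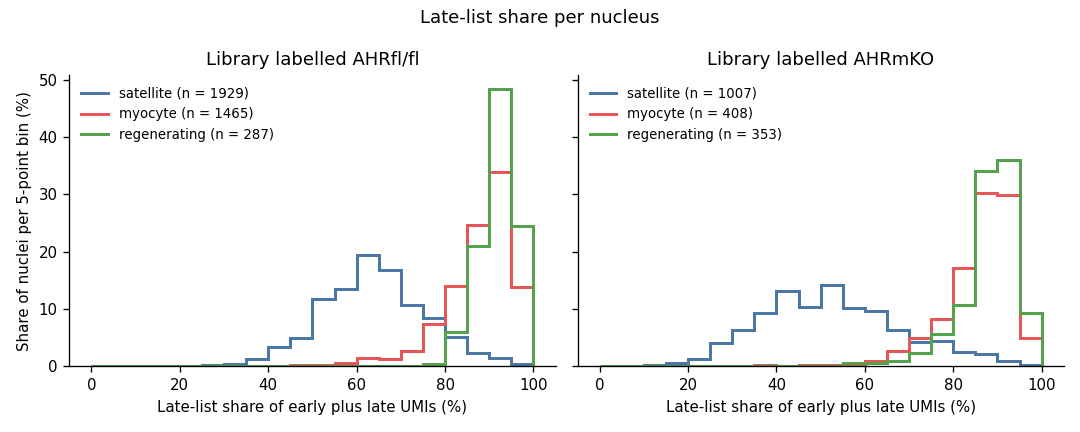
Share of nuclei (vertical axis, %) by late-list share of UMIs (horizontal axis, %, bins of 5 points) for the 3 sets of each library. Myocyte nuclei overlap the regenerating set (medians of 89.7 and 92.5% in the AHRfl/fl library) and lie above most satellite nuclei (median 63.6%).

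Gene by gene, the myocyte nuclei also lay nearer to the regenerating set. Of genes at least 2-fold higher in regenerating than in satellite nuclei, 895 of 1139 stood in between in the AHRfl/fl library and 224 stood beyond the regenerating level. In the AHRmKO library the numbers were 665 and 307 of 990. The median gene had covered 0.80 of the log2 distance in the first and 0.88 in the second library. Of genes at least 2-fold lower in regenerating nuclei, 3269 of 3952 and 2363 of 3424 stood in between, at a median of 0.72 and 0.84 of the distance.

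Against satellite nuclei, the myocyte nuclei were higher in sarcomere, calcium release and synapse genes and lower in cell cycle, satellite and Notch target genes. A gene was counted at a 2-fold difference in CPM with at least 30 UMIs over both sets, and log2 differences were taken after adding 0.5 CPM to each level, which makes low genes differ less. In the AHRfl/fl library, 1299 of 14752 genes (8.81%) were 2-fold higher and 3104 (21%) lower. In the AHRmKO library, 1049 of 12051 genes (8.7%) were higher and 3174 (26.3%) lower. The median log2 difference over all genes was -0.34 and -0.47. Of genes with enough counts in both libraries, 789 were higher in each, which is 85.1% of those higher in the AHRfl/fl library and 76.5% of those higher in the other. For lower genes the overlap was 2072, or 83.5% and 65.8%.

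All 14 genes of the developmental contractile list were 2-fold higher in myocyte than in satellite nuclei of both libraries, with median log2 differences of 1.98 and 3.48. Tnnt2, the embryonic and cardiac troponin T, stood at 593 CPM in myocyte nuclei and 130.0 CPM in satellite nuclei of the AHRfl/fl library, and at 947 and 84.6 CPM in the AHRmKO library. Myh8, the perinatal myosin heavy chain, stood at 579 and 124 CPM in the first and 569 and 34.8 CPM in the second library. Free RNA, at its estimated share of 16.5% in satellite nuclei of the AHRfl/fl library, would give 122 of the 130.0 CPM of Tnnt2 and 113 of the 124 CPM of Myh8 there. At 20.0% in the AHRmKO library it would give 35.8 and 17.1 CPM. The satellite levels of both genes in the first library were thus close to the estimated background, and the ratios of the libraries are not compared. Of 15 adult contractile genes with enough counts, 11 and 12 were higher and none lower (medians 1.26 and 2.06). Mybpc1, the slow myosin-binding protein C, was not among them, at 1506 CPM in myocyte and 1609 CPM in satellite nuclei of the first library and 1180 and 1101 CPM in the second. Free RNA held Actc1 at 1699 and 89.8 CPM and Acta1 at 3825 and 424 CPM, so the estimated background of these actins was higher in the AHRfl/fl library.

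Calcium release and membrane genes were higher along with the sarcomere genes. Of the triad and calcium list, 12 of 14 genes were higher in the AHRfl/fl library and 11 of 13 in the other (median log2 differences 2.02 and 2.25). Ryr1, the calcium release channel of the sarcoplasmic reticulum, stood at 1436 CPM in myocyte nuclei and 286 CPM in satellite nuclei of the first library, and at 2690 and 512 CPM in the second. Ryr3, its developmental relative, was close to the satellite level, at 660 and 873 CPM in the first and 504 and 519 CPM in the second library. Of 11 acetylcholine receptor and synapse genes, 7 and 6 were higher and none lower. Dok7, an activator of the receptor tyrosine kinase MuSK, stood at 111 against 19.2 CPM and at 189 against 40.7 CPM. Musk itself was within 2-fold, at 372 against 224 CPM and 252 against 165 CPM.

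Among regulators, 8 of 20 genes were 2-fold higher and 3 lower in the AHRfl/fl library, and 6 of 19 and 3 in the other. Over all genes 8.81% and 8.7% were higher and 21% and 26.3% lower, so the lower counts of this list are not above the background. Mef2a, Mef2c, Mef2d, Myod1, Rbm24 and Klf5 were higher in both. Mef2c stood at 1680 CPM in myocyte and 188 CPM in satellite nuclei of the first library (log2 difference 3.15, interval 3.08 to 3.23) and at 992 and 73.1 CPM in the second. Free RNA would give 66.1 CPM of Mef2c in satellite nuclei of the first library and 76.0 CPM in those of the second. The satellite level in the AHRmKO library was thus no higher than background, and the ratio to it is not read. Myf5, the factor of the undifferentiated myoblast, was lower, at 5.79 against 58.6 CPM and 1.78 against 50.2 CPM. Id3, which blocks the MyoD family by dimerising with its partners, was lower as well, at 40.4 against 96.6 CPM and 14.9 against 34.3 CPM. The list medians were 0.43 and -0.17.

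Of fusion genes outside the rule, 6 of 25 were higher and 5 lower in the AHRfl/fl library, and 6 and 8 of 25 in the other. Of all genes, 21% and 26.3% were lower, so the lower count of this list is near the background. Dysf, Elmo1, Erbb3, Flnc, Jam2 and Jam3 were higher in both libraries. Jam3, a junctional adhesion molecule, stood at 502 CPM in myocyte nuclei and 216 CPM in satellite nuclei of the first library and at 752 and 222 CPM in the second. Dysf, which reseals fibre membranes, stood at 933 and 143 CPM and at 1010 and 134 CPM. Kirrel, Dock1, Cdh15 and Anxa1 were lower in both. Kirrel, an adhesion protein of the nephrin family, stood at 21.6 CPM against 256 CPM in satellite nuclei of the first library and at 20.6 against 280 CPM in the second. Dock1, the activator of Rac that works with Elmo proteins, stood at 75.4 against 305 CPM and 76.7 against 337 CPM, while its partner Elmo1 was higher, at 221 against 99.8 CPM and 280 against 81.5 CPM. In satellite nuclei, free RNA would give 31.7 of the 99.8 CPM of Elmo1 in the first library and 76.6 of the 81.5 CPM in the second. The satellite level of Elmo1 in the AHRmKO library was thus close to the estimated background.

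Cell cycle genes were lower: 17 of 19 in the AHRfl/fl library and 19 of 19 in the AHRmKO library were at least 2-fold below satellite nuclei (medians -1.80 and -2.99). Top2a, a topoisomerase of dividing cells, stood at 44.3 against 359 CPM and 33.7 against 521 CPM. Thinned to 2000 UMIs, 10.8% (9.24 to 12.5) of myocyte nuclei had a UMI of Mki67 or Top2a in the first and 9.80% (7.10 to 13.1) in the second library, against 37.2% and 52.6% of satellite nuclei and 6.97% and 7.37% of regenerating nuclei. Unthinned, 24.2% and 17.6% of myocyte nuclei had one. The regenerating shares had counting intervals of 4.31 to 10.6% and 4.87 to 10.6%, so the myocyte share lay just above that interval in the first library and within it in the second. Free RNA held Top2a at 209 and 113 CPM, and its estimated share would give 28.8 of the 44.3 CPM of Top2a in myocyte nuclei of the first library and 12 of 33.7 CPM in the second. For Mki67 it would give 20.6 of 28.4 CPM and 8.54 of 33.0 CPM. Of 10 cycle exit genes, Rb1, the retinoblastoma repressor, was higher in both libraries, and Cdkn1b, Cdkn2c and Ccnd3 were lower in both.

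Most satellite genes and Notch targets that passed 2-fold were lower, while other Notch genes went either way. Of 15 and 14 satellite genes with enough counts, 8 were lower in each library, and these were the same 8: Calcr, Chodl, Fgfr4, Met, Notch3, Pax3, Peg3 and Vcam1. The cadherin gene Cdh4 was higher in both libraries, and Des in the AHRmKO library. Megf10, a membrane receptor of satellite cells, was not lower, at 276 CPM in myocyte and 242 CPM in satellite nuclei of the AHRfl/fl library and at 248 and 137 CPM in the other. Of 12 Notch genes, the receptor Notch1, the ligand Jag1 and the targets Hes1, Hey1 and Heyl were lower in both libraries. Heyl stood at 7.56 against 191 CPM and 2.84 against 141 CPM. The ligands Dll1 and Jag2, the Notch-binding protein Dner and the DNA-binding partner Rbpj were higher in both. Dll1 stood at 53.7 against 20.2 CPM and 128 against 48.9 CPM, and Rbpj at 553 against 212 CPM and 620 against 216 CPM. The ligands Dll1 and Jag2 were thus higher in nuclei with lower target genes, while the ligand Jag1 was lower.

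The remaining lists differed from satellite nuclei in both directions or in few genes. Of imprinted genes, 3 of 11 and 5 of 10 were higher and 2 lower in each library, with Igf2, Mirg and Rian higher and Plagl1 and Zim1 lower in both. Of growth factor genes, 4 of 12 and 2 of 9 were higher and 5 and 2 lower. Igf1, the insulin-like growth factor, stood at 95.2 against 40.7 CPM and 51.2 against 15.6 CPM, and its binding protein gene Igfbp5 at 211 against 594 CPM and 64.3 against 431 CPM. Igf1 was thus higher and Igfbp5 lower in both libraries. Of 14 oxidative metabolism genes, 3 were higher and none lower in each: Esrrg, Ppara and Ppargc1a. Of 12 early response genes, 1 was higher and 2 lower in the AHRfl/fl library, and 6 lower in the other. The shares over all genes were 8.81% and 8.7% higher and 21% and 26.3% lower. The lower counts of the imprinted list are thus near the background in both libraries. So are those of the growth factor list in the AHRmKO library and of the early response list in the AHRfl/fl library.

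**Figure D3:**
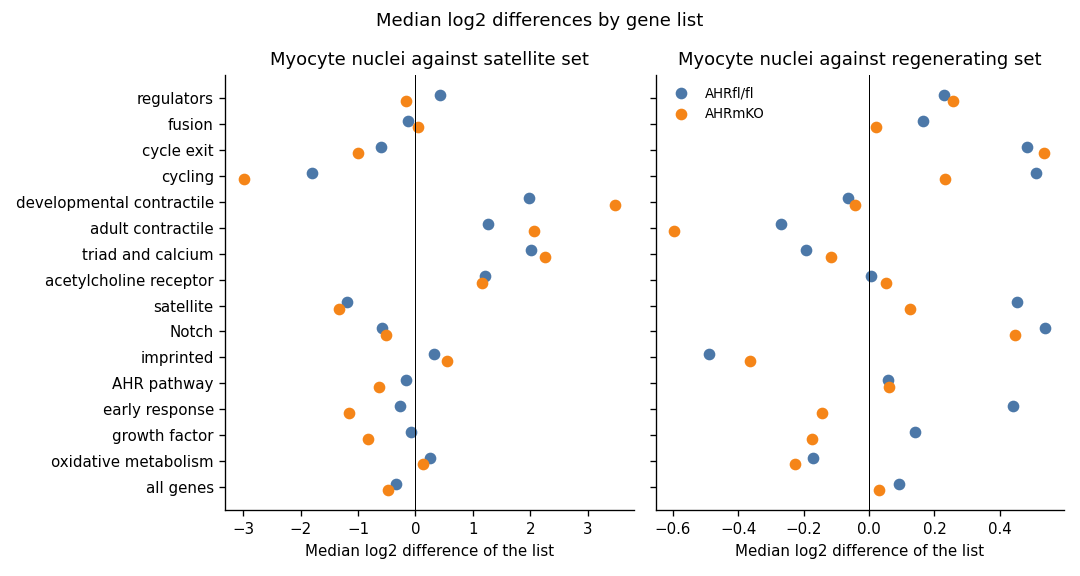
Median log2 difference of each gene list, myocyte against satellite nuclei and myocyte against regenerating nuclei, 1 point per library. Developmental contractile genes (1.98 and 3.48) and triad genes (2.02 and 2.25) have high medians against satellite nuclei and cycling genes the lowest (-1.80 and -2.99), while all medians against regenerating nuclei lie between -0.60 and 0.54.

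Against regenerating nuclei, fewer genes differed. In the AHRfl/fl library, 775 of 12872 genes (6.02%) were 2-fold higher in myocyte nuclei and 256 (1.99%) lower, and in the AHRmKO library 269 of 9687 (2.78%) and 242 (2.5%). The regenerating sets were shallower, with 1390992 and 1459811 UMIs against 8464670 and 2815102 in the myocyte nuclei. A gene near the filter of 30 UMIs thus rests on few regenerating UMIs, above all in the AHRfl/fl library. The part of counting error in these counts was not tested. Of genes with enough counts in both, 87 were higher in each, which is 20.7% and 33.3% of those higher in the AHRfl/fl library and the other. Of the 420 such genes higher in the AHRfl/fl library, 94 had a difference of the opposite sign in the other. Lower in each were 59 genes, or 46.5% and 24.9%. No developmental contractile gene passed 2-fold. Among the listed genes, Cdkn1c, Megf10 and Elmo1 were higher and Mybpc1 lower in both libraries. Cdkn1c, an inhibitor of cyclin-dependent kinases, stood at 238 CPM (228 to 249) in myocyte and 93.5 CPM in regenerating nuclei of the first library, and at 321 CPM (301 to 343) and 147 CPM in the second (log2 difference 1.13, 0.91 to 1.35). Megf10 stood at 276 against 123 CPM (1.17) and at 248 against 114 CPM (1.11). Mybpc1 stood at 1506 against 3369 CPM and 1180 against 2519 CPM. Free RNA held Cdkn1c at 784 and 55.8 CPM. At its estimated share it would give 108 CPM in myocyte and 102 CPM in regenerating nuclei of the AHRfl/fl library, so the regenerating level there was no higher than background and the ratio to it is not read. For the AHRmKO library these values were 5.93 and 9.20 CPM.

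Some genes peaked in the myocyte nuclei. Ranked by the smaller of the 2 libraries' log2 differences from the higher neighbouring set, the leading 15 were Tmem178b, Myo16, Adgrg1, Rapgefl1, Rin3, Ermap, Elmo1, Palmd, Kcnk13, Tmcc3, Spg21, Frmpd1, Zyx, Lamb3 and Zswim6, with values from 1.30 down to 0.86. Kcnk13, a background potassium channel, stood at 338 CPM in myocyte, 37.4 CPM in satellite and 168 CPM in regenerating nuclei of the AHRfl/fl library, and at 458, 35.0 and 232 CPM in the other. Myo16, an unconventional myosin, stood at 91.9, 3.09 and 38.1 CPM and at 104, 3.15 and 30.8 CPM. Adgrg1, an adhesion G protein-coupled receptor, stood at 42.8, 6.87 and 12.2 CPM and at 54.3, 5.0 and 22.6 CPM. Rin3, an exchange factor for Rab GTPases, stood at 291, 105 and 124 CPM and at 355, 149 and 156 CPM. In Kcnk13, Myo16, Adgrg1 and Rin3 the order of the sets was the same in both libraries. In Elmo1, Spg21, Zyx and Zswim6 the satellite level lay above the regenerating level in the AHRfl/fl library and below it in the other. Thinning to 2000 UMIs before applying the rule turned the value of Tmem178b to -0.27 and of Lamb3 to -0.44, and a fibre-gene floor of 2% turned that of Zswim6 to -0.08. The ranking is a description, since it selects for high values.

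**Figure D4:**
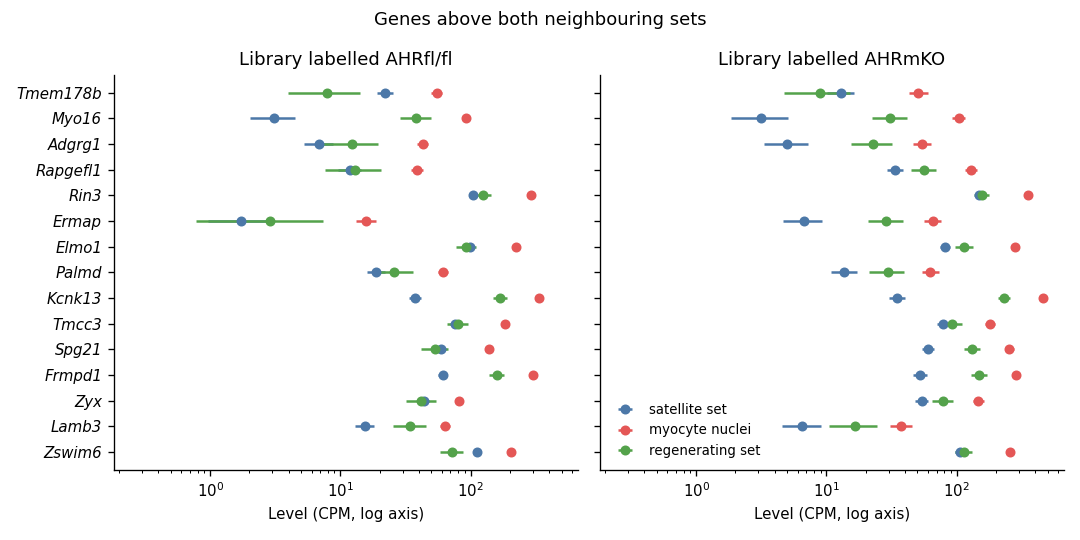
Levels (CPM, log axis) of the 15 genes highest in myocyte nuclei relative to both neighbouring sets, with exact 95% Poisson intervals. The myocyte points lie to the right of the satellite and regenerating points in both libraries, as for Kcnk13 (338 against 37.4 and 168 CPM in the AHRfl/fl library).

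Genes lowest in the myocyte nuclei, by the same kind of ranking, were Ror1, Zbtb16, Hjurp, Zim1 and Fnip1. Ror1, a receptor for Wnt ligands, stood at 81.0 CPM in myocyte, 925 CPM in satellite and 144 CPM in regenerating nuclei of the AHRfl/fl library, and at 34.8, 340.0 and 63.7 CPM in the other. Zbtb16, a zinc-finger repressor, stood at 94.5, 283 and 152 CPM and at 45.5, 235 and 138 CPM. In myocyte nuclei of the AHRmKO library, free RNA would give 21.8 CPM of Ror1 and 29.1 CPM of Zbtb16. These dips against the regenerating set were all under 2-fold except that of Zbtb16 in the AHRmKO library (log2 difference -1.60).

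The myocyte nuclei were not uniform. They were split per library into tertiles by their share of fibre-gene UMIs, a measure of the rule, so the order itself is no result. The tertiles of the AHRfl/fl library held 489, 488 and 488 nuclei, with fibre genes at 0.301 to 1.93%, 1.94 to 3.15% and 3.15 to 15.2% of UMIs. In the AHRmKO library each held 136 nuclei, at 0.357 to 4.08%, 4.13 to 6.08% and 6.08 to 13.5%. The late share of thinned UMIs summed over the nuclei of a tertile is not a median over nuclei. It went up from 83.1% through 90.2% to 92.1% in the first library, and from 83.2% through 87.8% to 89.1% in the second.

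Cdkn1c had its highest level in the lowest tertile. It stood at 468 CPM (442 to 496) in the lowest, 155 CPM in the middle and 136 CPM (124 to 150) in the highest tertile of the AHRfl/fl library, and at 569 CPM (524 to 616), 211 CPM and 119 CPM (95.6 to 146) in the other. The intervals of the lowest and highest tertiles did not overlap in either library, but they cover counting error only and leave out the spread between nuclei or mice. The estimated free RNA would give 138, 105 and 87.4 CPM of Cdkn1c in the tertiles of the first library and 6.96, 5.07 and 5.60 CPM in those of the second. Free RNA would thus give most of the level in the middle and highest tertiles of the AHRfl/fl library, and little of it in the AHRmKO library.

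Megf10 followed the same order, at 392, 327 and 141 CPM in the first and 352, 195 and 171 CPM in the second library, with at most 11.9 CPM from estimated free RNA. Top2a stood at 90.6, 31.6 and 20.3 CPM and at 61.9, 18.3 and 14.4 CPM. Free RNA would give 36.7, 28.2 and 23.3 CPM in the first library and 14.1, 10.3 and 11.4 CPM in the second. The intervals of the highest tertile held that level in both libraries, and that of the middle tertile (10.9 to 28.9 CPM) lay above it in the AHRmKO library. Notch3 stood at 92.3, 43.3 and 47.6 CPM and at 96.6, 30.5 and 37.8 CPM. Megf10, Top2a and Notch3 were thus highest in the nuclei with the least fibre-gene RNA. Markers of other cell types were also highest there: the macrophage receptor Mrc1 stood at 100.1, 55.8 and 48.2 CPM and at 25.3, 14.2 and 19.6 CPM, and the fibroblast collagen Col3a1 at 358, 240.0 and 189 CPM and at 54.4, 42.7 and 30 CPM, with overlapping intervals of the lowest and highest tertiles in the AHRmKO library. Their part in the order of the other genes was not tested.

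Myosin and calcium channel genes ran the other way. Myh3 stood at 1079, 1826 and 2156 CPM from the lowest to the highest tertile of the AHRfl/fl library and at 1975, 3286 and 4706 CPM in the other. Cacna1s, the voltage sensor of the triad, stood at 57.3, 207 and 314 CPM and at 133, 333 and 410 CPM. Myh4, the adult fast IIb myosin, stood at 121, 317 and 704 CPM and at 102, 401 and 834 CPM. Myh8 stood at 157, 593 and 890 CPM and at 275, 738 and 763 CPM. Embryonic, perinatal and adult myosin levels therefore all were higher at a higher fibre-gene share. In the lowest tertile of the AHRfl/fl library, estimated free RNA would give 511 CPM of Myh3, 125 CPM of Myh4 and 120 CPM of Myh8. In that of the AHRmKO library it would give 53.3, 31.6 and 10.7 CPM. The Myh4 level of the lowest AHRfl/fl tertile was thus no higher than the estimated background, and that estimate would give most of its Myh8 level. Mymk did not share 1 order: it stood at 400, 382 and 327 CPM in the first and 362, 383 and 485 CPM in the second library. Myog stood at 386, 284 and 258 CPM and at 191, 162 and 198 CPM.

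**Figure D5:**
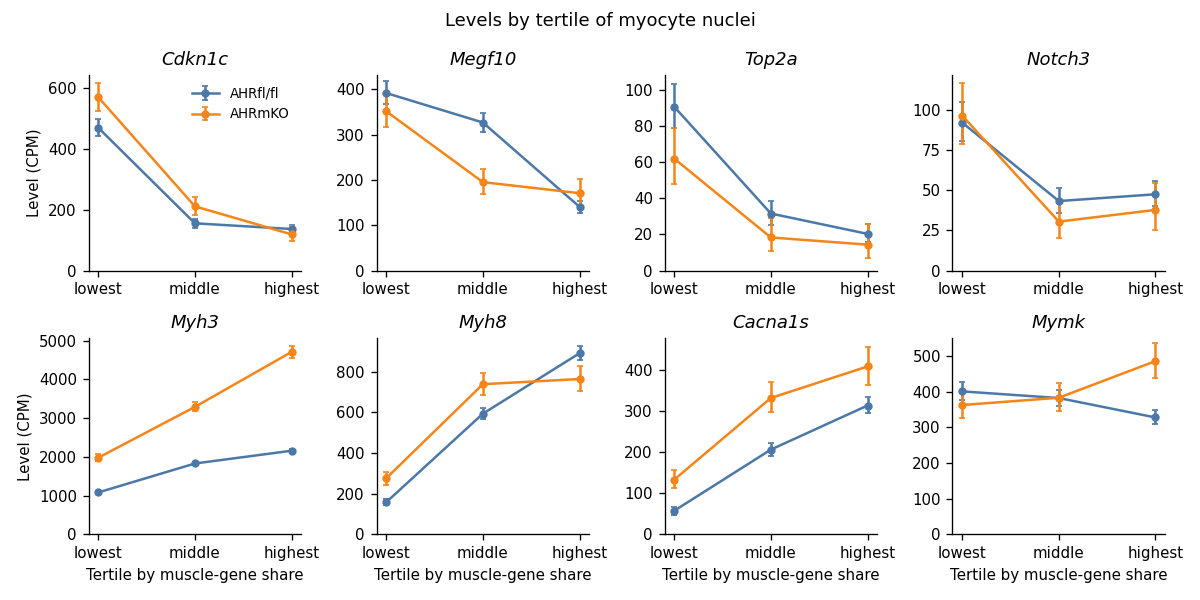
Levels (CPM, exact 95% Poisson intervals) of 8 genes in the lowest, middle and highest tertile of myocyte nuclei by share of fibre-gene UMIs, 1 line per library. Cdkn1c, Megf10, Top2a and Notch3 are highest in the lowest tertile of both libraries, Myh3, Myh8 and Cacna1s in the highest, and Mymk runs in opposite directions (400 to 327 CPM and 362 to 485 CPM).

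Over all genes outside the ordering value, 694 of 11393 (6.09%) were 2-fold higher and 1619 (14.2%) lower in the highest than in the lowest tertile of the AHRfl/fl library, and 182 of 7236 (2.52%) and 700 (9.67%) in the other, with median log2 differences of -0.35 and -0.25. Of genes with enough counts in both libraries, 115 were higher in each (31.4% and 65.0% of each library's own) and 303 lower (37.5% and 43.4%). Of the cycling list, 10 of 16 genes were lower in the first and 5 of 7 in the second library, and none was higher. Of the triad list, 7 of 14 and 2 of 13 were higher and none lower. Genes ranked after their values were seen are given as a description. Prox1, a homeobox transcription factor, stood at 84.0, 23.2 and 11.1 CPM from the lowest to the highest tertile of the AHRfl/fl library and at 60.1, 17.3 and 7.83 CPM in the other. Mlip, whose protein binds lamin A, stood at 5.77, 81.5 and 258 CPM and at 21.6, 67.2 and 103 CPM.

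Between the libraries, the targeted gene is given first. Ahr (ENSMUSG00000019256, chromosome 12, 35497974 to 35535038) stood at 30.1 CPM (255 UMIs) in myocyte nuclei of the AHRfl/fl library and 26.6 CPM (75 UMIs) in the AHRmKO library, a log2 difference of -0.17 whose interval of -0.57 to 0.20 includes 0. With nuclei thinned before the rule was applied, it was at 22 UMIs in 414 nuclei and at 0 UMIs in 85 nuclei, where a count of 0 allows up to 17.6 CPM, and the value with 0.5 CPM added was -5.76. In the other 17 alternatives the value lay between -0.40 and 0.08. Satellite nuclei held it at 41.4 and 55 CPM and regenerating nuclei at 42.4 and 45.2 CPM. Free RNA held it at 18.5 and 20.1 CPM. Within the tertiles it stood at 21.4, 32.6 and 34.6 CPM and at 18.8, 27.5 and 36.5 CPM, and no tertile of the AHRmKO library lacked it. The counts are not split by exon, so removal of a floxed exon could not be seen, and these values do not check the label. Of 6 genes of the AHR pathway list with enough counts, 0 were 2-fold higher and 1 lower. Of all genes, 4.9% were higher and 17.6% lower, so these counts are near the background. The lower gene was Hsp90ab1, a chaperone of the receptor. Its log2 difference of -1.16 became 0.73 when free RNA of 200 to under 500 UMIs was subtracted. Its sign changed in only that 1 of 18 alternatives, not with the profile of at most 100 UMIs.

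Across all genes, 642 of 13100 (4.9%) were 2-fold higher in myocyte nuclei of the AHRmKO library and 2307 (17.6%) lower, with a median log2 difference of -0.10. Higher genes made up 21.8% of those past 2-fold, and 40.5% or 43.6% when free RNA was subtracted by the profile of 200 to under 500 UMIs or of at most 100 UMIs. That subtraction moved the median to 0.01 and 0.04. Genes that overlap a more abundant gene of the other strand were 38.8% of the lower, 8.10% of the higher and 14.7% of all genes counted. Use of the read strand in counting is not given in the sources used here, so reads of such pairs cannot be told apart. Gm42418, a ribosomal-like gene model, stood at 3412 and 19141 CPM in the lowest tertile and 2917 and 30588 CPM in the highest, AHRfl/fl first. Malat1 stood at 41529 and 21952 CPM and at 75951 and 35440 CPM. Median mitochondrial shares of myocyte nuclei were 0.70% and 1.56%. With mitochondrial and ribosomal-like genes left out of the scaling, 731 genes were 2-fold higher and 2234 lower.

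Of 11 early response genes, 3 were higher (Fos, Fosb and Egr1) and 1 lower (Ier2), with a median of 0.12. That median ran from 0.01 to 1.48 over the 18 alternatives, at 0.72 and 0.77 with free RNA subtracted and 1.48 with nuclei thinned before the rule. Fos, a subunit of the AP-1 transcription factor, stood at 5.20 CPM (44 UMIs) in the AHRfl/fl library and 82.8 CPM (233 UMIs) in the other, a log2 difference of 3.87 (3.52 to 4.49). Free RNA would give 4.62 of the 5.20 CPM in the first and 16.8 of the 82.8 CPM in the second library, so the lower level is near background, and the difference ran from 3.03 to 7.07 over the alternatives. Egr1, an immediate early transcription factor, stood at 20.0 and 79.9 CPM (1.97, 1.71 to 2.30). Satellite nuclei showed the same direction for Fos (4.60) and Egr1 (2.60), and so did the droplets of 200 to under 500 UMIs (2.22 and 0.70). The difference is therefore not limited to the myocyte nuclei.

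The developmental contractile list had a median of 0.45, with 1 of 14 genes higher (Xirp1) and none lower, and its median stayed positive in all 18 alternatives, between 0.18 and 0.64. Tnnt2 was higher in the AHRmKO library (0.68) and Myh8 was at the same level (-0.02). Regenerating nuclei held Tnnt2 at 390 and 734 CPM, so its difference is not limited to the myocyte nuclei. Satellite nuclei held it the other way, at 130 and 84.6 CPM. Fibre genes took a median of 2.59% and 5.01% of the UMIs of myocyte nuclei, and the part of that in the list median was not tested. The oxidative metabolism list had a median of -0.67 with 0 higher and 4 of 14 lower: Atp5b, Cox4i1, Cox5a and Pdk4. Atp5b, a subunit of ATP synthase, stood at 257 and 104 CPM (-1.30). Free RNA held it at 1210 and 97.4 CPM, and after subtraction of free RNA by 1 profile its log2 difference was 0.01. The sign of Atp5b changed in only that 1 of the 18 alternatives, not with the other profile. The list median ran from -0.79 to 0.03 over the alternatives. Of 12 satellite genes, 1 was higher (Peg3) and 3 lower (Pax3, Sdc4, Vcam1). Of 11 Notch genes, Dll1 was higher and Heyl lower, and of 20 regulators 0 were higher and 3 lower (Id3, Myf5 and Myf6). Of all genes, 4.9% were higher and 17.6% lower, so the lower count of the regulators is near the background.

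Among genes of at least 50 CPM, the 10 highest log2 differences were led by Fos, followed by Camk1d (2.45), Msln (2.17), Lars2 (2.15), Carns1 (2.10), Cyp46a1 (2.08), Ajuba (2.07), Mamstr (2.04), Ermap (2.02) and Egr1. Mamstr, a coactivator of MEF2 proteins, stood at 133 and 547 CPM in myocyte nuclei, 70.4 and 331 CPM in satellite nuclei and 160 and 659 CPM in regenerating nuclei, the AHRfl/fl library first. It was thus higher in the AHRmKO library in all 3 sets. Camk1d, a calmodulin-dependent kinase, stood at 535 and 2915 CPM in myocyte nuclei and at 4093 and 31593 CPM in free RNA, whose estimated share would give 564 and 3356 CPM. The Camk1d level was thus no higher than background in either library. Lars2 stood at 160 and 713 CPM in myocyte nuclei, of which free RNA would give 69.2 and 402 CPM.

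Of the 10 lowest, 8 overlapped a more abundant partner of the other strand and are uncertain for that reason: Sorbs2os, Angptl1, Lysmd4, Rsf1os1, Rsf1os2, Lrrc4, Dnajc19 and Prr33. The other two were Ppef1 and Ifitm3. Ppef1, a protein phosphatase gene on chromosome X (160623094 to 160735765), stood at 74.5 CPM (631 UMIs) in myocyte nuclei of the AHRfl/fl library and at 0.355 CPM (1 UMI) in the other, a log2 difference of -6.46 (-13.02 to -5.23). It stood at 68.3 and 1.37 CPM in regenerating nuclei and 5.72 and 0.370 CPM in satellite nuclei. Ppef1 was thus abundant in myocyte and regenerating nuclei of 1 library and close to absent in those of the other. Ifitm3, an interferon-induced membrane protein, stood at 76.8 and 2.13 CPM (-4.88). Free RNA would give 89.2 and 4.08 CPM of it, more than was measured in either library.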

How the data were processed

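Single-nucleus libraries of the Chromium 3′ HT chemistry were analysed, 1 per group, grouped by title. The deposited matrices hold the authors' raw UMI counts of each gene in each listed barcode, unfiltered and not normalised: 2428718 barcodes with 151788328 UMIs (AHRfl/fl) and 2502183 with 113737134 (AHRmKO). The submitters' processing notes name Cell Ranger 7.0.1 and mm10, while the file headers give format version 4. The annotation, intronic reads and strand are not given in the sources used here. GENCODE M21 (GRCm38) gave gene coordinates and opposite-strand pairs for 32158 of 32285 genes.

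Counts were summed per set and library, with CPM as UMIs per 1000000 of the set and exact Poisson intervals (95%). Shares have Clopper-Pearson intervals, and log2 differences exact conditional binomial intervals, with 0.5 CPM added to the point values. All cover counting error only. A gene was counted at 2-fold with at least 30 UMIs. No test was possible with 1 library per group. Scrublet (in scanpy 1.11.5) scored doublets at 0.4% per 1000 barcodes. They were kept, and left out as an alternative. Free RNA was profiled in droplets of 200 to under 500 UMIs, with at most 100 UMIs as an alternative, and its share was the ratio of macrophage marker levels in nuclei and profile. It attributes all macrophage RNA in the nuclei to free RNA and depends on the profile: in myocyte nuclei, the profile of at most 100 UMIs gave 19.3% (AHRfl/fl) and 7.94% (AHRmKO) in place of 13.8% and 10.6%.

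The genes named are Myog, Mymk, Mymx and Ahr, up to 6 most abundant members of each list with those past 2-fold, and, among genes of at least 50 CPM, the 15 peak genes, 5 trough genes and 10 highest and lowest between libraries. Named genes leave out mitochondrial and haemoglobin genes, unnamed gene models, Xist, Y genes and rule genes. Other list members named beside these, and the leading genes of the tertiles, were chosen after their values were seen. The members and lists were chosen with earlier results of these data known. The adult fibre set held 10 nuclei in the AHRfl/fl library and is not described. Alternatives varied depth, mitochondrial, fusion and fibre-gene thresholds, doublets, free RNA, scaling, the added CPM, the count filter and the comparison sets. The ratios and intervals were run on simulated Poisson counts, the model that the intervals assume. That checks the computation only and not the spread between nuclei or free RNA. Python 3.11.15, numpy 2.4.6, scipy 1.17.1 and pandas 2.3.3 were used.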

Additional observations from a re-analysis of the deposited data

How the results depend on the processing

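Each group is 1 library, so no replicate could be left out, and the depth of 408 nuclei limits low genes in the AHRmKO library. No paired analysis was possible because each group has 1 library. The share of myocyte nuclei depended on each threshold. In the AHRfl/fl and AHRmKO libraries it was 7.52% and 4.54% at a minimum of 1000 UMIs, 11.4% and 8.15% at 3000 UMIs (difference -3.26 points), 2.97% and 1.98% with at least 5 fusion gene UMIs (-1.0), 2.44% and 1.28% with nuclei thinned first (-1.16), and 5.71% and 4.06% without any UMI of Ptprc, Pdgfra or Pax7 (-1.65). A mitochondrial limit of 2% gave 8.23% in the AHRmKO library (-0.33) and a limit of 10% a difference of -3.29. A fibre-gene floor of 1% gave 7.69% in the AHRfl/fl library (-1.63). A floor of 2%, added after seeing the data, gave 5.60% there and turned the difference to 0.23 points. The cause of these shifts beyond the thresholds themselves was not tested.

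The position between satellite and regenerating nuclei in the AHRfl/fl library ranged over 91.4% (mitochondrial limit 2%), 92.8% (fibre-gene floor 1%), 97.1% (floor 2%), 91.9% and 88.2% (regenerating floor of 1% and 4%). In the AHRmKO library the position was 94.3% at a regenerating floor of 4% and 96.6% at a fibre-gene floor of 2%. This position was not computed with free RNA subtracted. With nuclei thinned first, 1605 of 3269 genes stood in between in the AHRmKO library. Over genes of both directions, the median gene of the AHRfl/fl library had covered 0.74 of the log2 distance. That fraction was 0.57 at a regenerating floor of 4% and 0.87 at a fibre-gene floor of 2%. In the AHRmKO library it was 0.85, 0.79 and 0.89 in the same order. Between the libraries, genes 2-fold higher numbered 1103 and 1163 with free RNA of 200 to under 500 and of at most 100 UMIs subtracted, 300 with 5 CPM added and 425 with a filter of 100 UMIs. Genes 2-fold lower numbered 1504 with free RNA of at most 100 UMIs subtracted, 1251 with 5 CPM added, 1269 with a filter of 100 UMIs, 1189 with nuclei thinned first and 1413 without opposite-strand genes, the last added after seeing the data. The values of Hsp90ab1 (0.73) and Atp5b (0.01) changed sign with free RNA subtracted by 1 profile, and not with the other profile. Those of Tmem178b (-0.27) and Lamb3 (-0.44) reversed as peak genes with nuclei thinned first, and that of Zswim6 (-0.08) at a fibre-gene floor of 2%. The cause was not tested. The value of Ahr was -5.76 with nuclei thinned first, where the AHRmKO library held 0 UMIs of it, and from -0.40 to 0.08 otherwise, and the early response median ran from 0.01 to 1.48. List medians between the libraries changed sign in at least 1 alternative for the adult contractile, cycle exit, cycling, fusion, growth factor, oxidative metabolism, satellite and triad lists, and in none for the others.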

Other observations

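Slc24a3, a sodium-calcium exchanger, was chosen after its values were seen. It stood at 641 CPM in the lowest, 226 CPM in the middle and 43.1 CPM in the highest tertile of myocyte nuclei of the AHRfl/fl library, and at 587, 214 and 99.1 CPM in the AHRmKO library. Satellite nuclei held it at 152 and 275 CPM and regenerating nuclei at 44.6 and 113 CPM, so the lowest tertile stood above both neighbouring sets in each library. Free RNA held it at 55.9 and 211 CPM. St3gal4, a sialyltransferase, followed the tertiles in the same order (159, 38.8 and 10.5 CPM, and 159, 38.7 and 17.0 CPM) but was higher still in satellite nuclei, at 240 and 247 CPM.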
